A study of Mus musculus with 14 samples.

Results

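The genes described here are the Microprocessor subunits Drosha and Dgcr8, the 2 hairpins annotated inside the Dgcr8 mRNA (Gm24572 and Mir1306), and the Drosha cofactors Ddx5 and Ddx17. They were taken by name, 6 genes in all, from the gene names attached to each degradome pile-up site and to each row of the RNA-seq table. These names matched 3 of the 3919 pile-up sites of the Drosha comparison, 1 of the 4666 sites of the Dicer comparison and 4 of the 22376 rows of the RNA-seq table. Every matching pile-up site lay in Dgcr8, and no site was named for Drosha, Ddx5 or Ddx17.

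The libraries came from mouse embryonic stem cells (ESCs), cultured with LIF on Mitomycin C-inactivated mouse embryonic fibroblasts. Drosha-deficient ESCs were Drosha fl/fl Gt(ROSA)26SorCreERT2 cells given 100 nM 4-hydroxytamoxifen for 72 h and then kept for 48 h without it, and their controls were cells of that line left untreated, so that the groups also differ in exposure to 4-hydroxytamoxifen. Dicer-deficient ESCs were Dicer fl/fl cells transduced with a GFP-Cre retrovirus, and their controls were Dicer fl/fl cells that received GFP alone. In both Dicer groups GFP+ cells were sorted on day 3 and grown for 2 more days. The way Cre was supplied, the sort and the ESC line therefore differ between the Drosha and the Dicer comparison and cannot be told apart from the deleted gene. Degradome-seq, which ligates a linker to the 5′ monophosphate of polyA-tailed RNA fragments so that read starts mark cleaved ends, had 2 libraries in each of the 4 groups. RNA-seq covered the Drosha line, with 3 control and 3 Drosha-deficient libraries. The sources do not say whether the libraries of a group came from separate cultures, so the p-values measure the spread between libraries, which may be technical.

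Drosha is the RNase III enzyme of the Microprocessor. It cuts both strands at the base of a hairpin in a primary miRNA transcript and so releases the precursor miRNA, leaving a polyA-tailed fragment that begins just after the 3′ cut. Dgcr8 is the double-stranded RNA-binding partner that recognises the hairpin, and its own mRNA carries hairpins that the Microprocessor can cut, a known feedback loop on Dgcr8 level. Ddx5 (p68) and Ddx17 (p72) are DEAD-box RNA helicases that help the complex to process a subset of primary miRNAs. Dicer acts after export from the nucleus, on the precursor that Drosha has released.

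Both hairpins lie in exon 2 of Dgcr8-201, the main coding transcript (GRCm38, chr16:18283697-18284696, minus strand, within the gene at chr16:18253948-18289246). Gm24572 (chr16:18284550-18284637, 88 nt, the gene of miR-3618) is in the 5′ UTR. Mir1306 (chr16:18284239-18284317, 79 nt) is in the coding sequence, and 232 nt of exon separate the hairpins. Of the 10 annotated Dgcr8 transcripts, 3 hold the Gm24572 pile-ups in an exon and 4 hold that of Mir1306. The mature miRNAs are shown because the pile-ups were placed against their ends, with the seed (bases 2 to 8) in capitals, from RefSeq on GRCm38.p6.
miR-3618-5p: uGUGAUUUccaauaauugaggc
miR-3618-3p: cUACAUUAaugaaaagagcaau
miR-1306-5p: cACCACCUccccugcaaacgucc
miR-1306-3p: aCGUUGGCucugguggugaug
The 4 seeds differ from each other, and none is shared with another name among the 1679 mature miRNAs of the table. The genome sequence around the stronger Gm24572 pile-up (chr16:18284549-18284578) and around the Mir1306 pile-up (chr16:18284233-18284262) is given on the minus strand, with the 15 bases before the first base of the reads in lower case and the 15 bases from that base on in capitals.
Gm24572 main site: ttaatgaaaagagcaATGTGGCCAGCTTGA
Mir1306 site: gctctggtggtgatgGACAGTCCGAACCTC
The lower-case stretch of the Mir1306 window ends on the last base of miR-1306-3p. That of the Gm24572 window ends 2 bases before the end of miR-3618-3p, so its reads begin with the final 2 bases of that miRNA. The first 30 bases at each of the 3 sites occur at 1 place in the assembled chromosomes, so their reads are not shared with another copy there.

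The strongest pile-up in Dgcr8, called the Gm24572 main site, began at base 18284563, which is 147 nt before the first base of the coding sequence. It held 11.9 and 9.75 RPM (read starts scaled to the mapped reads of each library) in the control libraries of the Drosha line, which are 342 and 285 reads. In the Drosha-deficient libraries it held 1.61 and 2.71 RPM, or 50 and 78 reads. Both control libraries were above both deficient libraries, and the deficient mean was 19.9% of the control mean (10.8 ± 1.54 RPM against 2.16 ± 0.776, SD, n = 2 each).

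The second pile-up in Gm24572 began 2 nt further downstream, at base 18284561, and was weaker. It held 1.26 and 0.547 RPM in the control libraries and 0.290 and 0.348 RPM in the Drosha-deficient libraries. The control libraries differed from each other by more than the lower of them differed from the deficient libraries, although the groups did not overlap. The deficient mean was 35.4% of the control mean (0.901 ± 0.50 RPM against 0.319 ± 0.0404, SD, n = 2 each).

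The Mir1306 pile-up began at base 18284247, which is base 170 of the coding sequence and the middle base of codon 57. It held 1.22 and 0.890 RPM (35 and 26 reads) in the control libraries and 0.452 and 0.765 RPM (14 and 22 reads) in the Drosha-deficient libraries. The higher deficient library came close to the lower control library without reaching it. The deficient mean was 57.6% of the control mean (1.05 ± 0.234 RPM against 0.608 ± 0.221, SD, n = 2 each). All these values are above the level of 3 reads, which corresponds to between 0.0968 and 0.105 RPM in these libraries and covers counting error only.

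**Figure D1:**
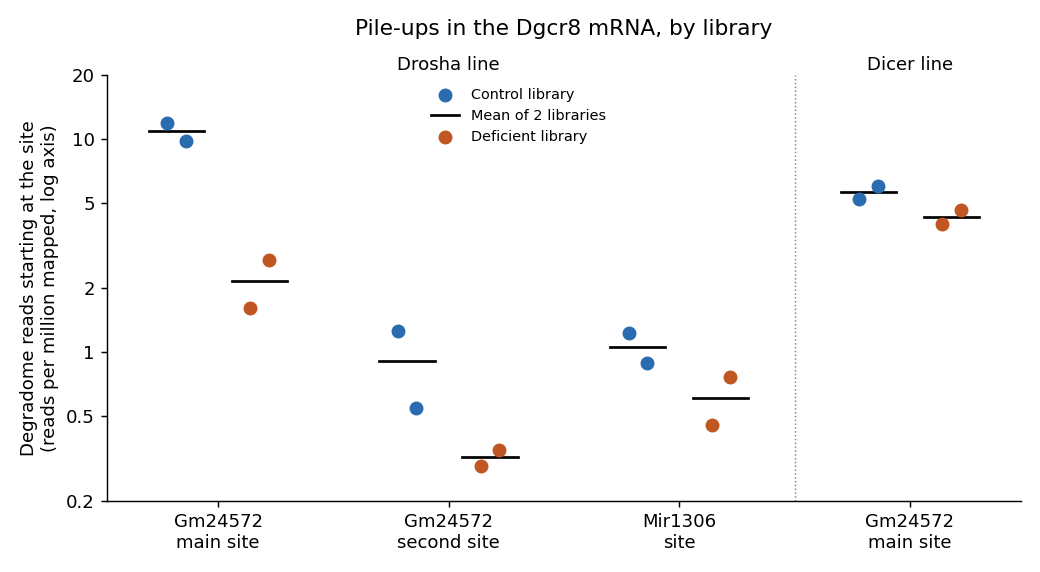
RPM of reads that start at each Dgcr8 pile-up site (vertical log axis) in every degradome library; circles are libraries (blue control, orange deficient) and bars the mean of 2. The Gm24572 main site stands near 10 RPM in the Drosha-line controls and near 2 RPM without Drosha, while in the Dicer line all 4 libraries lie between 3.99 and 6.0 RPM.

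**Figure D2:**
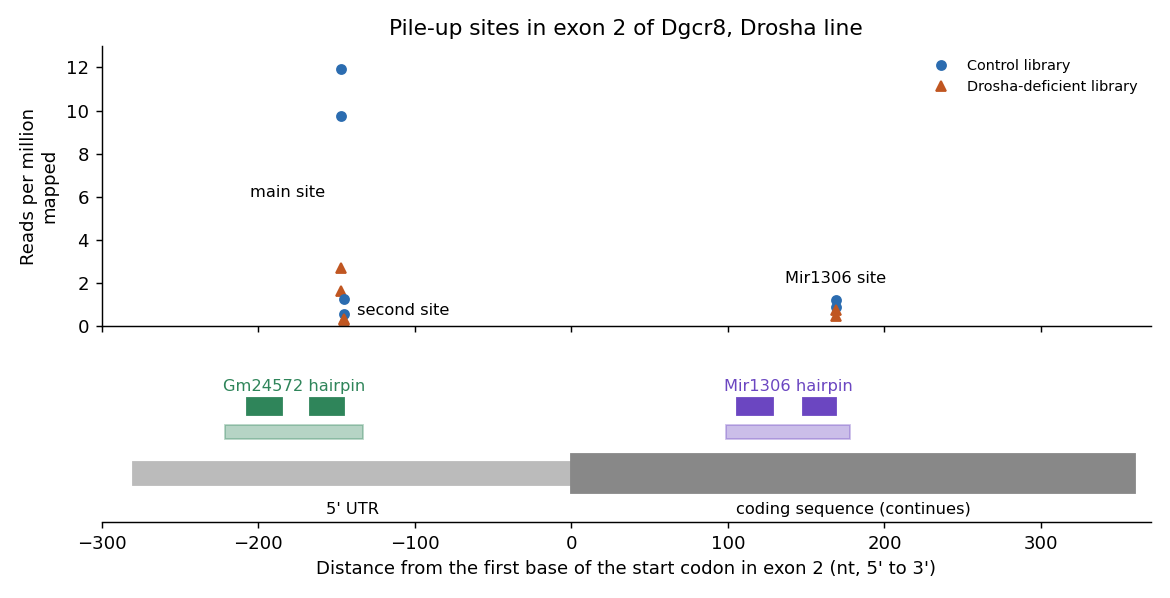
Position of the 3 pile-up sites along exon 2 of Dgcr8, as the distance in nt from the first base of the start codon (horizontal axis), with RPM in each Drosha-line library above (circles control, triangles Drosha-deficient). The paler boxes are the annotated hairpins and the darker boxes above them the mature miRNAs; each pile-up falls at the 3′ end of its hairpin's 3p miRNA.

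Of the 3 sites, the Gm24572 main site was called decreased. A site was called when limma's moderated test on log2(RPM + 0.1) gave a Benjamini-Hochberg adjusted p below 0.05 over all sites and a log2 fold change beyond 1.5 in either direction. The rule called 37.6% of all sites of the Drosha table decreased, so 1 of 3 is near the background. The log2 fold change of the main site was −2.31 (SE 0.39, 95% confidence interval −3.13 to −1.49, limma adjusted p = 0.000122). The second site had −1.16 (SE 0.58, interval −2.39 to 0.06, limma adjusted p = 0.0911) and the Mir1306 site −0.73 (SE 0.52, interval −1.82 to 0.36, limma adjusted p = 0.231). In neither was the difference larger than the spread between libraries by this test. Both intervals also hold values beyond −1.5, so a decrease of that size lay within the error at a depth of 14 to 35 reads a library for Mir1306 and 9 to 36 for the second site. Non-overlap of the groups, seen at 3 of 3 sites, was found at 59.9% of all sites. The study picked pile-ups in the control libraries, which can favour sites whose control values are high through counting error. This holds for the Dgcr8 sites and for the background alike, and its size was not tested. Over all 3919 sites the median was −0.93 on the log2 scale. The Mir1306 site was therefore less negative than the median site, and the main site was more negative than all but 657 sites.

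The share of reads at each hairpin was compared within libraries. Among the reads that start at the Gm24572 main site or the Mir1306 site, Mir1306 took 9.28% (35 of 377 reads, 95% Wilson interval 6.75% to 12.6%) and 8.36% (26 of 311, 5.77% to 12%) in the control libraries. In the Drosha-deficient libraries it took 21.9% (14 of 64, 13.5% to 33.4%) and 22% (22 of 100, 15.0% to 31.1%). The share was higher in both deficient libraries than in both control libraries, by 13.1 percentage points between the group means, and the counting intervals of the groups did not overlap. An exact two-sided permutation test gave p = 0.333, the smallest p that 2 libraries against 2 allow, so the design cannot place this difference beyond the spread between libraries. This rise in share went with fewer reads at both sites, not with more reads at Mir1306. The second Gm24572 site took 9.52% and 5.32% of the reads of the main and second sites together with Drosha present, and 15.3% and 11.4% without it. The Wilson intervals of that share overlapped between the groups (6.96% to 12.9% and 3.30% to 8.46% against 8.24% to 26.5% and 6.29% to 19.7%). Reads without molecular identifiers are not independent molecules, so these intervals cover counting error only. Added over the 3 sites, Dgcr8 pile-ups came to 14.4 and 11.2 RPM in controls and to 2.35 and 3.82 RPM after loss of Drosha. In bulk libraries, fewer cells that cut the Dgcr8 mRNA and fewer cut molecules per cell cannot be told apart.

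In the Dicer line the Gm24572 main site was the one Dgcr8 pile-up listed. There, 5.21 and 6.0 RPM (180 and 206 reads) were counted in the GFP controls, and 3.99 and 4.61 RPM (118 and 151 reads) without Dicer. The controls were again the higher group without overlap, but the deficient mean was 76.7% of the control mean. The log2 fold change was −0.38 (SE 0.35, interval −1.23 to 0.47, limma adjusted p = 0.690), which is within the spread between libraries. Called decreases made up 0% of the 4666 sites of the Dicer table by limma's adjusted p, while 60 sites had a limma p below 0.05 unadjusted and a log2 fold change below −1.5, and the Gm24572 main site was not among them. Controls above deficient libraries without overlap were found at 27.4% of all Dicer sites. The second Gm24572 site and the Mir1306 site are not in the Dicer table, which holds that line's own pile-up sites, so they have no value there.

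Whether the change at the Gm24572 main site differed between loss of Drosha and loss of Dicer was tested as an interaction over the 2595 sites that both tables hold. The log2 fold change was 1.93 lower in the Drosha comparison (−1.93, SE 0.52, interval −3.10 to −0.77, limma adjusted p = 0.0586). This missed the threshold of 0.05 that 4.78% of the shared sites passed. The call depended on the fit. With the replicate number as a block within each line the adjusted p was 0.000282, without the first Dicer control library it was 0.0334, and both passed the threshold. Over all alternatives it ranged up to 0.174, and the estimate stayed negative in each.

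Other annotated miRNA hairpins gave the scale on which to read these values. The Drosha table holds 90 other sites in annotated miRNAs, with a median log2 fold change of −1.97 (range −3.95 to 0.56) and 62 called decreased (68.9%). The Gm24572 main site lay on the more negative side of that group, with 28 of the 90 sites more negative and 64 of the 90 lower in control RPM. The Mir1306 site lay towards the other end, with 77 of the 90 sites more negative and 13 lower in control RPM. For the second Gm24572 site these numbers were 70 and 8.

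Hairpins of similar depth were spread widely. The 2 miRNA sites nearest to the Gm24572 main site in control mean were those of Mir5121 and Mir130b. Mir5121 held 16.1 and 5.61 RPM in controls and 11.5 and 4.27 RPM after loss of Drosha (log2 fold change −0.44, SE 0.49, limma adjusted p = 0.455), and its direction turned without the first control library (0.32) or the second deficient library (0.27). Mir130b held 8.68 and 13.6 RPM against 5.58 and 3.27 RPM (−1.33, SE 0.39, limma adjusted p = 0.00723), past the p threshold but short of the fold threshold. It was called with library sizes from uniquely mapped reads (−1.59). With each library centred on its median it missed both thresholds (−0.73, limma adjusted p = 0.104). With 1 library left out its log2 fold change lay between −0.95 and −1.70. The 2 nearest to the Mir1306 site, Mir505 and Mirlet7g, were both called decreased. Mir505 held 0.488 and 1.54 RPM in controls and 0 and 0.278 RPM after loss of Drosha (−2.34, SE 0.74, limma adjusted p = 0.0113). Mirlet7g held 1.01 and 0.992 RPM against 0.226 and 0.139 RPM (−1.98, SE 0.58, limma adjusted p = 0.00678). Both calls rest on the settings. With pseudocounts of 0.5 and 1 RPM both fell short of the fold threshold (−1.19 and −0.78 for Mir505, −1.14 and −0.76 for Mirlet7g), and with each library centred on its median neither was called (−1.74, limma adjusted p = 0.0787, and −1.39, limma adjusted p = 0.0364). The Mir505 call was also lost without the second control library (−1.60, limma adjusted p = 0.180) and without the first deficient library (−1.38, limma adjusted p = 0.0982).

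The Drosha table also has pile-ups in other hairpins whose pile-up base GENCODE places in an exon of a protein-coding transcript, and they were taken by their place. The hairpins of Mir671, Mir331 and Mir147 lie wholly in such an exon, and that of Mir700 lies in one with 44 of its 79 bases. Mir671, in Chpf2, held 21 and 18.3 RPM with Drosha and 3.23 and 2.99 RPM without it (−2.62, SE 0.35, limma adjusted p = 2.05e-05). Mir331, in Vezt, held 3.77 and 5.30 RPM with Drosha and 1.06 and 0.487 RPM without it, and both were called (−2.47, SE 0.46, limma adjusted p = 0.00027). The other two passed the p threshold but not the fold threshold. Mir147, in AA467197, held 42.5 and 39.5 RPM against 18 and 14.7 RPM (−1.33, SE 0.33, limma adjusted p = 0.00215), and was called with library sizes from uniquely mapped reads (−1.59). Mir700, in Rcan3, held 6.28 and 3.25 RPM against 2.06 and 1.7 RPM (−1.23, SE 0.42, limma adjusted p = 0.0181). Its control libraries differ, and the log2 fold change was −1.69 without the second of them and −0.76 without the first. With each library centred on its median, Mir700 missed both thresholds (−0.63, limma adjusted p = 0.136). The Gm24572 main site was closer to the called hairpins, and the Mir1306 site was less negative than each of the 4. In the Dicer line Mir671, Mir331, Mir147 and Mir700 had log2 fold changes of −0.55, −0.67, 1.58 and 0.62, and as at Gm24572 none was called. With the replicate block the increase at Mir147 was called (limma adjusted p = 0.00773).

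**Figure D3:**
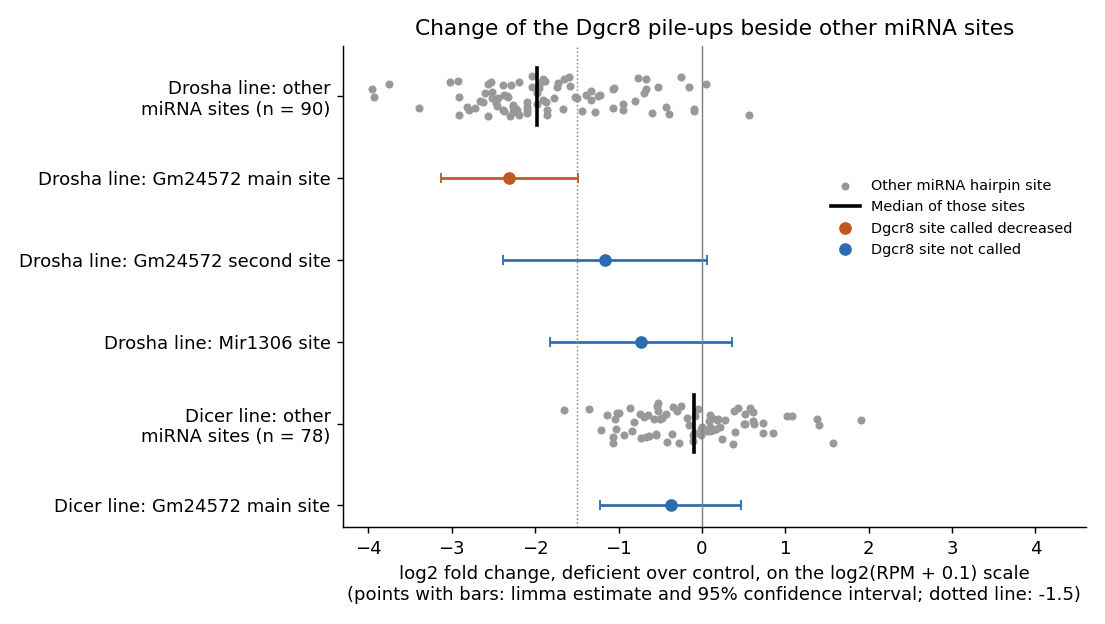
log2 fold change of deficient over control libraries (horizontal axis) for the Dgcr8 sites, as limma estimates with 95% confidence intervals, beside every other miRNA hairpin site (grey points, black bar at the median) in the Drosha and Dicer lines. The interval of the Gm24572 main site in the Drosha line ends at −1.49, whereas those of the other Dgcr8 sites include 0.

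The first base of each pile-up was compared with the end of the annotated 3p miRNA. In the Drosha line, 66 hairpins that the RefSeq miRNA table used here holds together with their 3p miRNA have a pile-up, and in 46 of them (69.7%) the strongest pile-up began at the next base after the end of that miRNA. The Mir1306 site began at that base. The Gm24572 main site began 1 base before the last base of miR-3618-3p (position −1, where the last base is 0), and its second site began at the next base after it. No other of the 66 hairpins, and no other of the 60 in the Dicer table, had its strongest pile-up at −1, while the strongest pile-ups of 64 of the 66 and 58 of the 60 lay between −1 and 3. Of the 66 hairpins, 8 held more than 1 pile-up site, and Gm24572 was one of them. Base 18284563 is also the annotated first base of Dgcr8-203, a retained-intron transcript of Dgcr8. A transcript that begins at this base and a fragment cut there share the same first base in the annotation.

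**Figure D4:**
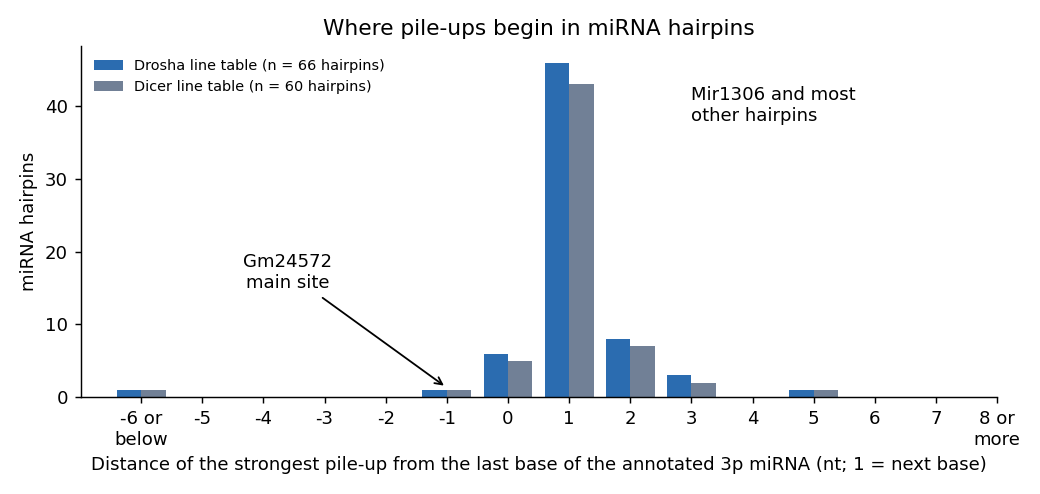
Number of miRNA hairpins (vertical axis) by the distance in nt of their strongest pile-up from the last base of the annotated 3p miRNA (horizontal axis; 1 is the next base) in the Drosha table (blue, 66 hairpins) and the Dicer table (grey, 60 hairpins). Most hairpins, Mir1306 among them, stand at 1, and Gm24572 stands at −1 in both tables.

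By free energy, the predicted folds of the 2 hairpins were less stable than those of most miRNA stem-loops of the study. The window from 15 nt before the first base of the 5p miRNA to 15 nt from the pile-up base on was folded with RNAfold. Gm24572 (90 nt) had a minimum free energy of −31.2 kcal/mol with 71.1% of its bases paired. Mir1306 (93 nt) had −29.8 kcal/mol with 49.5% paired. Of the 68 stem-loops used here that the study classes as miRNA, refolded in the same way, 62 had a lower free energy than Gm24572 and 66 a lower one than Mir1306, and their median was −41.4 kcal/mol. The median of the 40 stem-loops used here that it classes as non-miRNA was −23.5 kcal/mol, with 15 of the 40 lower than either Dgcr8 hairpin. By the share of paired bases the 2 hairpins differed. Of the 68 miRNA stem-loops (median 72.2% paired), 39 were more paired than Gm24572 and 68 more than Mir1306. Of the 40 others (median 59.7%), these numbers were 2 and 37. Gm24572, which the study places in the non-miRNA class, was left out of these 40. The comparison stem-loops were folded in the study's own windows, and in its window for Gm24572 (88 nt) the free energy was −29.6 kcal/mol. In the Gm24572 fold, the 3′ overhang at the pile-ups depends on where the 5′ end is set. From the annotated first base of miR-3618-5p (base 18284623) it was 0 nt at the main site and 2 nt at the second site. The study's own stem-loop window puts the 5′ end 2 nt further in, at base 18284621, which gives 2 nt at the main site and 4 nt at the second. That window was itself chosen by the study for an overhang typical of RNase III, so it is no independent measure of the overhang. In the Mir1306 fold the overhang at the pile-up, from the annotated 5p miRNA, was 3 nt. With 25 nt of flank the Gm24572 fold kept its 32 pairs, whereas Mir1306 took another fold of 35 pairs in which the arms of the hairpin no longer matched in this way.

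A CNNC motif, known as a binding site of the cofactor Srsf3 downstream of many primary miRNA hairpins, was looked for on the RNA strand at 16 to 18 bases from the first base of the pile-up (counted as 1). The letters were present at the Mir1306 site and absent from this window at both Gm24572 sites. The first 30 bases at Mir1306 (chr16:18284218-18284247, minus strand) are shown with the 4 bases of the motif in capitals.
Mir1306 downstream: gacagtccgaacctcCTGCcgacgacccat
The motif stood in this window at 59.1% of the 93 miRNA sites and at 19.2% of the 3917 sites of the Drosha table that lie on assembled chromosomes. A match is a description of letters and no evidence of binding.

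The genes of Drosha, Ddx5 and Ddx17 were also searched by position for pile-ups that carry no gene name, a search made after the values had been seen. Drosha (chr15:12824815-12935291, plus strand) held 1, on the strand opposite to the gene, at base 12842436 within exon 7 of Drosha-201. It held 4.46 and 2.05 RPM in the control libraries and 0.484 and 0.243 RPM in the Drosha-deficient libraries (log2 fold change −2.81, SE 0.52, limma adjusted p = 0.000251). In the Dicer line it held 2.11 and 0.699 RPM against 2.03 and 0.580 RPM (−0.14, SE 0.78, limma adjusted p = 0.952), with libraries of one group further apart than the groups. Whether this pile-up differs between the comparisons was not settled by the interaction test (−2.66, limma adjusted p = 0.116, but 0.000225 with the replicate block and 0.0348 without the first Dicer control library). The 3 bases directly before this site are those at the 3′ end of the ligated linker, a match found at 30.8% of all sites of the Drosha table, against 0, 1 and 0 bases at the 3 Dgcr8 sites in the order main, second and Mir1306; the part of the linker in this value was not tested. An antisense pile-up gives no level of the Drosha mRNA.

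Ddx17 (chr15:79527736-79546741, minus strand) held 1 unnamed pile-up, at base 79543705 on its own strand. This is the first base of intron 2, which is 1119 nt long, directly after the last base of exon 2 in Ddx17-201. The sequence across the boundary (chr15:79543691-79543720) is shown with the intron in capitals.
Ddx17 exon 2 to intron 2: gcaagactgactccgGTAAGAAAGGGGGGA
It held 2.68 and 2.84 RPM in controls and 1.90 and 1.39 RPM after loss of Drosha (−0.73, SE 0.42, limma adjusted p = 0.138). In the Dicer line it held 2.43 and 4.34 RPM in GFP controls and 6.08 and 8.49 RPM after loss of Dicer (1.12, SE 0.43, limma adjusted p = 0.485). Neither change was called, and that in the Drosha line was less negative than the median of all sites there (−0.93). Controls stood above deficient libraries without overlap in the Drosha line, as at 59.9% of all sites, and below them in the Dicer line, as at 16.8%. Ddx5 (chr11:106780355-106789185, minus strand), the closest relative of Ddx17, held no pile-up in either table.

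Other proteins of the pathway gave few pile-ups. Of the other RNA helicases of primary miRNA processing (Ddx1, Ddx3x and Dhx9), 2 held a site in both tables and none was called, beside 37.6% of all sites called decreased and 9.57% called increased in the Drosha table and 0% each way in the Dicer table. Dhx9, an RNA helicase that unwinds double-stranded RNA, held 15.7 and 10.4 RPM in controls and 10.7 and 8.27 RPM after loss of Drosha. Ddx3x held 5.68 and 3.93 RPM against 3.65 and 1.88 RPM. After loss of Dicer, Ddx3x went from 5.07 and 10.1 RPM to 3.34 and 2.29 RPM (−1.34, SE 0.47, limma adjusted p = 0.469). With the replicate block its limma adjusted p was 0.0346, short of the fold threshold. Dhx9 went from 17.4 and 16.1 RPM to 13.6 and 11.9 RPM there (−0.40, limma adjusted p = 0.643). Of 21 RNA-binding cofactors, 4 held 5 sites in the Drosha table, with 1 called decreased (37.6% of all sites) and 1 called increased (9.57% of all sites) and a median log2 fold change of −0.40 beside −0.93 over all sites. The increase was at chr17 base 56571427 in Safb2, a scaffold attachment factor, from 47.9 and 40.9 RPM to 129 and 126 RPM (1.52, SE 0.32, limma adjusted p = 0.000642). Its log2 fold change stands just beyond 1.5 and fell short of it, at 1.41, without the second control library. In the Dicer line, 5 of the cofactors held 8 sites and none was called. The 3 with the highest RPM were in Safb2 (chr17 base 56566937), Taf15 (chr11 base 83499122) and Ewsr1 (chr11 base 5070274), the last 2 members of the FET family of RNA-binding proteins. Their log2 fold changes were 1.05, 0.70 and 0.04. The first 30 bases at the Ewsr1 site occur at 2 places in the genome, so its reads may be shared. Of the 8 proteins downstream of the Microprocessor (Xpo5, Dicer1, Tarbp2, Prkra and Ago1 to Ago4), none held a site in either table.

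The mRNA level of the 4 protein-coding genes could be read from the authors' mean log2 CPM (read counts scaled to library size) alone, which pools the control and Drosha-deficient RNA-seq libraries of the Drosha line. It gives neither a value per library nor a difference between the groups, so loss of Drosha mRNA in the Drosha-deficient libraries was not checked here. The mean log2 CPM was 6.86 for Dgcr8, 6.58 for Drosha, 9.22 for Ddx5 and 9.62 for Ddx17. Divided by the length of all annotated exons, the level per kb was 3.92 for Dgcr8 and 4.01 for Drosha on the log2 scale, at percentiles 81.7 and 82.8 of the genes in the table. Ddx5 and Ddx17 stood higher, at 6.69 and 6.68, both at percentile 97.9. With the length of the longest transcript the order within each pair turned, to 4.75 for Dgcr8 and 4.39 for Drosha and to 7.37 for Ddx5 and 7.38 for Ddx17, so neither pair can be ordered. The helicases stayed above the Microprocessor subunits by both lengths. The hairpin genes Gm24572 and Mir1306 have no row in this table.

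**Figure D5:**
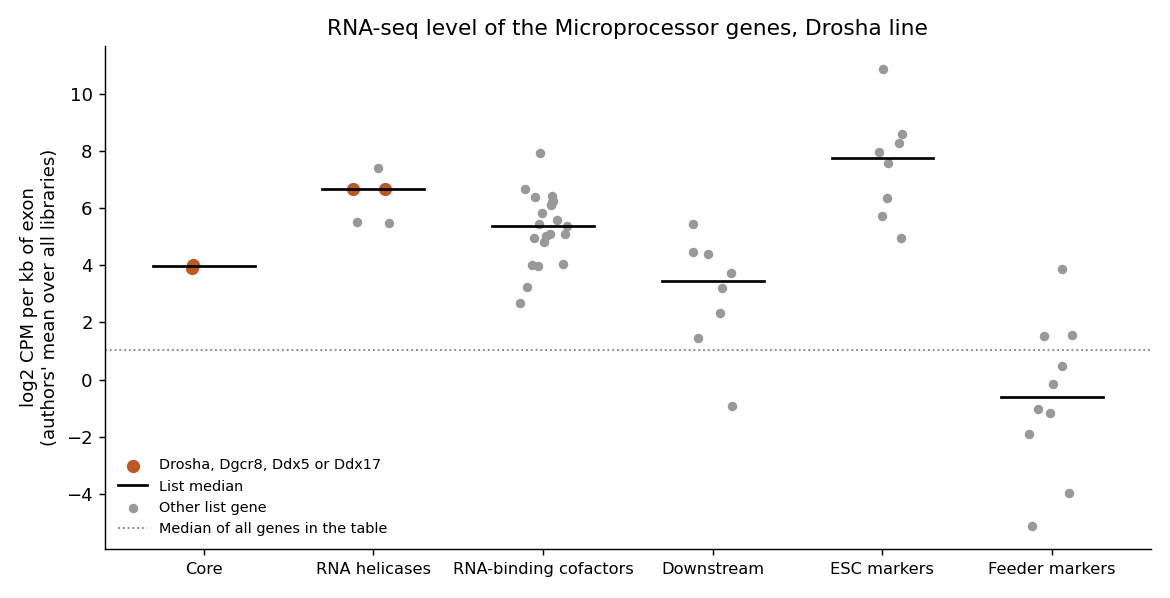
The authors' mean RNA-seq level over all libraries of the Drosha line, as log2 CPM per kb of exon (vertical axis), for each gene (points) of 6 lists, with list medians as bars and the median of all genes as a dotted line. Drosha and Dgcr8 stand near 4 and Ddx5 and Ddx17 near 7 (orange), all above the median of all genes at 1.05.

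By the same measure the 5 helicases had a median of 6.68, the 21 RNA-binding cofactors 5.38 and the 8 downstream proteins 3.47, beside 1.05 for all genes of the table. The lowest of these 34 genes was Ago4, an Argonaute protein, at −0.92, and the highest was Hnrnpa2b1, an RNA-binding protein, at 7.95. The 8 ESC markers lay between 4.95 (Klf4) and 10.9 (Dppa5a), with Pou5f1, the pluripotency factor Oct4, at 8.61. The 10 markers of fibroblasts, the feeder cells, were all present in the table, from −5.13 (Fap) to 3.89 (Col1a1), with a median of −0.61. Col1a1, the main collagen of fibroblasts, thus stood at the level of Dgcr8 by the length of all exons. With the length of the longest transcript it was lower, at 4.03 against 4.75 for Dgcr8. The part of feeder RNA in these means was not tested.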

How the data were processed

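The members, gene lists and tests were chosen with earlier results of these data known. Per the labels and the methods of the study, the authors trimmed Degradome-seq reads with Trimmomatic 0.38.0, aligned them to GRCm38 (mm10) with STAR, counted read starts at each position and strand, and used a classifier, which had learned from miRNA loci, to pick pile-ups in the control libraries of a line. The tables also hold 1 (Drosha) and 3 (Dicer) sites at 0 in both control libraries, so this rule does not describe every row. They deposited RPM of mapped reads per library. Mapped reads numbered 28682300 to 31000283 in the Drosha line and 29598724 to 34547609 in the Dicer line, and a share of 26.9% to 41.8% of them mapped to several places. Read numbers quoted are RPM times mapped reads. For RNA-seq, the authors deposited an edgeR table with the mean log2 CPM over all libraries; counter and annotation are not given in the sources used here. Its other columns hold the authors' own fold changes and p-values and were not used.

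RPM were tested as log2(RPM + 0.1) with limma 3.58.1 (R 4.3.3, trend on), one table at a time, with Benjamini-Hochberg adjustment over all sites. Samples were grouped by their GEO titles. On simulated data with the sites of the Drosha table, 90% of 4-fold and 100% of 8-fold changes were recovered and 1 of 3719 unchanged sites was called. With those of the Dicer table the values were 97%, 100% and 0 of 4466. The simulated spread was fixed in advance and not estimated from these libraries, so these rates are not the power on the real data. Changed sites had a mean above 1 RPM, whereas the second Gm24572 and Mir1306 sites had means of 0.610 and 0.831 RPM. Sites were placed with GENCODE vM21 on GRCm38, and mature miRNAs came from RefSeq, which held both hairpins. All but 23 of the RNA-seq genes matched a GENCODE gene length. Folds used RNAfold 2.7.2 without lonely pairs. Named beyond the members were called sites in the listed genes, or the 3 with the highest RPM where none was called, the 2 miRNA sites nearest in control RPM to each hairpin, and the miRNA hairpins with a pile-up inside coding-transcript exons. 1 called site of a listed gene is counted but not reported here. Alternatives changed the pseudocount, library size, centring, trend, read filter, replicate block, fold threshold, left-out library, flank, lonely pairs and transcript length. A left-out library leaves 1 library in its group, so p-values and calls of that fit rest on the spread within the other groups alone. Python 3.11.15 was used.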

Additional observations from a re-analysis of the deposited data

Results flagged for a closer look

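At the unnamed pile-up on the first base of Ddx17 intron 2, both Drosha-deficient libraries were below both controls, as at 59.9% of all sites of the Drosha table, whereas both Dicer-deficient libraries were above both controls, as at 16.8% of all sites of the Dicer table. The log2 fold change in the Drosha comparison (−0.73) was less negative than the median of all sites (−0.93), and it was −0.13 with each library centred on its median. The interaction estimate between the comparisons was −1.85 (SE 0.58, 95% interval −3.16 to −0.53, limma adjusted p = 0.0740), which did not pass 0.05 after adjustment over the 2595 shared sites. Centred on the median of the shared sites it was −1.33 (limma adjusted p = 0.144), and over all alternatives the adjusted p ranged from 0.000927, with the replicate block, to 0.195.

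Among the other exonic hairpins, Mir147 and Mir671 passed 0.05 in the interaction test, and Mir331 and Mir700 did not. At Mir331 the estimate was −1.79 (SE 0.71, limma adjusted p = 0.110, and 0.00176 with the replicate block). At Mir147 both Drosha-deficient libraries were below both controls and both Dicer-deficient libraries above both controls, and the interaction estimate was −2.90 (SE 0.46, 95% interval −3.95 to −1.85, limma adjusted p = 0.0232). At Mir671 the estimate was −2.08 (SE 0.44, interval −3.07 to −1.09, limma adjusted p = 0.0424), beside 4.78% of shared sites that passed 0.05. Both missed 0.05 with no trend and with any 1 library of the Drosha line left out, and over all alternatives the adjusted p reached 0.120 at Mir147 and 0.158 at Mir671. At Mir700 the libraries moved as at Mir147, with an estimate of −1.85 (SE 0.58, limma adjusted p = 0.0738, and 0.000896 to 0.218 over the alternatives).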

How the results depend on the processing

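The decrease at the Gm24572 main site was called under every alternative that kept all libraries, with log2 fold changes between −1.72 and −2.58. When 1 library was left out, which leaves 1 in its group, they lay between −1.95 and −2.67. The second Gm24572 site (−0.50 to −1.70) and the Mir1306 site (−0.13 to −1.05) were called under none of their 11 alternatives. Short of the fold threshold, the second site passed the p threshold with no trend (−1.16, limma adjusted p = 0.0446). It also did so with library sizes from uniquely mapped reads (−1.46, limma adjusted p = 0.0412). The main site in the Dicer comparison also stayed uncalled in 11 of 11. The Drosha minus Dicer difference there stayed negative (−1.58 to −2.29 with 1 library left out). Centred on the median of the shared sites it was −1.42 (limma adjusted p = 0.0939). The labels give the groups the same replicate numbers without saying what a number marks. Across sites, the log2 difference between control libraries 1 and 2 was correlated with that between deficient libraries 1 and 2. The correlation was 0.132 in the Drosha and 0.527 in the Dicer table. It compares these differences and is no measure of how alike the libraries are. With 2 libraries a group both pairs of a line share that 1 value, so the design does not show whether the libraries are paired. With the replicate block the difference at the main site kept its size (−1.93) and was called (limma adjusted p = 0.000282), and the Dicer counts went from 0 and 0 to 67 decreased and 119 increased; it also called the differences at the antisense Drosha and Ddx17 intron sites (limma adjusted p = 0.000225 and 0.000927) and at Mir331 and Mir700 (0.00176 and 0.000896) and the increase at Mir147 in the Dicer table (1.58, limma adjusted p = 0.00773), and changed no other call at a site named here.

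Over all sites of the Drosha line, 1473 were called decreased and 375 increased. Decreased calls numbered 953 and 548 with pseudocounts of 0.5 and 1 RPM and 907 to 1519 with 1 library left out (907 without the first control). Centring each library on its median gave 871 decreased and 602 increased calls and moved the median log2 fold change from −0.93 to −0.34; library sizes from uniquely mapped reads moved it to −1.20. In the Dicer table leaving out 1 library gave 0 to 1 decreased and 0 to 13 increased calls, both highest without the second deficient library. Centring turned the Dhx9 site to 0.16 and Mir5121 to 0.16, and the latter lay between −1.19 and 0.32 with 1 library left out. The alternatives for the other miRNA hairpins were added after their values were seen. The Ewsr1 site turned to −0.10 with uniquely mapped reads and lay between −0.31 and 0.38 with 1 library left out, and the antisense Drosha site in the Dicer table between −0.97 and 0.68. The Safb2 increase fell short of the fold threshold with uniquely mapped reads (1.26). With 25 nt of flank the free energies were −31.9 kcal/mol for Gm24572 and −37.3 kcal/mol for Mir1306, and −29.9 kcal/mol for Mir1306 with lonely pairs allowed. The causes were not tested. The second Gm24572 and Mir1306 sites rest on 9 to 36 reads a library.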
